A study of Mus musculus with 22 samples.

Results

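The comparison described here set TERT-deleted MCAM-medium spermatogonia against TERT-deleted MCAM-high spermatogonia, in open chromatin. It rests on 6 of the 22 libraries of the series, 3 of each population, chosen by their library names and marker entries, with no measured value used. In ATAC-seq, Tn5 transposase cuts accessible DNA and leaves sequencing adapters there, so the read count in a peak measures how open that stretch was. The mice were C57BL/6, aged 8 to 12 weeks, and received tamoxifen, and cells were sorted by FACS on day 7. Both populations are undifferentiated spermatogonia by their labels, MCAM-Med:KIT- in the MCAM-medium sort and MCAM-high:KIT- in the MCAM-high sort. The genotype entry, TertCreER/+:Rosalsl-Tdtomato/+, is the same in deleted and control libraries, so the deletion of TERT rests on the titles. In TertCreER the tamoxifen-dependent Cre is expressed from the Tert locus, and the Rosa26 allele is a tdTomato reporter of recombination. Control libraries carry the title TERT-hetero and had the same tamoxifen and day. They comprised 2 of MCAM-medium, 3 of MCAM-high and 3 of KIT-positive (differentiating) cells, beside 3 deleted KIT-positive ones. The labels do not state whether replicate libraries came from separate mice. The p-values therefore speak only of variation among these libraries, and that variation may be technical.

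Undifferentiated spermatogonia hold the stem cells of the testis and the progenitors that follow them. Stem cells are kept by GDNF and FGF signals from their surroundings and express Gfra1 and Etv5. Progenitors express Neurog3, Sox3 and Rarg, and answer retinoic acid by switching on Kit and Stra8 and starting differentiation. MCAM is an adhesion molecule of the cell surface and is used to grade cells within this compartment. Active gene starts in mouse cells are mostly rich in CpG and open in many cell types, whereas distal enhancers tend to be poor in CpG and open in particular cell states.

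Accessibility differed at 505 of the 34861 peaks tested (1.45%), and 444 of these (1.27% of tested peaks) were higher in deleted MCAM-medium cells, while 61 (0.175%) were lower. The called sites lay mostly away from gene ends, within genes such as Hspa12a, Rab40c, Tnks and Lpar1 or between genes. At the sites that were higher, the median level was 26.9 CPM (counts scaled to library size by the TMM method) in deleted MCAM-medium cells and 6.91 CPM in deleted MCAM-high cells, with a median log2 fold change of 1.96. At the sites that were lower, the medians were 8.53 CPM in MCAM-medium and 29.3 CPM in MCAM-high cells, with a median log2 fold change of -1.67. The change was at least 2-fold at 420 of the 444 higher sites and 51 of the 61 lower sites, and at least 4-fold at 207 and 18 of them. Calls had a Benjamini-Hochberg adjusted p under 0.05 in edgeR's quasi-likelihood test over all tested peaks, and 4237 peaks had an unadjusted p under 0.05. The median log2 fold change over all tested peaks was -0.01. The libraries of the 2 populations did not overlap at 434 of the 444 higher sites and at all 61 lower sites, against 17.4% of all tested peaks. The calls came from these same libraries, so this separation is largely fixed by the choice. A higher count can come from more cells with the site open or from a more open site in each cell, and these cannot be told apart in bulk libraries.

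The count of calls depended on single libraries. It was 119 without deleted MCAM-medium library 2, 164 without MCAM-medium library 1, 231 without MCAM-high library 2 and 301 without MCAM-high library 1, and with 2 libraries a group it was 1 without both libraries numbered 1 and 0 without both numbered 2. DESeq2 called 199 peaks, and a fit that took its spread from all 17 spermatogonial libraries called 8.

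Total counts in peaks were 1222372 to 1552405 in the deleted MCAM-medium libraries and 1071255 to 1466424 in the deleted MCAM-high libraries, so that 3 counts, taken as the upper limit where none was seen, stand for 1.93 to 2.45 CPM and 2.05 to 2.80 CPM. Even numbers made up 48.8 to 73.7% of the counts above 0, with the largest share in deleted MCAM-medium library 3. Where the 2 ends of each fragment were both counted, even numbers are in excess, and intervals and floors, which cover counting error only, are then too narrow.

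The control libraries numbered 1 went against their gate labels. Over 22437 peaks, log2 levels in the library labelled control MCAM-medium 1 had a mean correlation of 0.782 with the deleted MCAM-medium libraries and 0.843 with the deleted MCAM-high ones. In the library labelled control MCAM-high 1 these values were 0.841 with deleted MCAM-medium and 0.768 with deleted MCAM-high libraries. The other 3 control libraries and all 6 deleted libraries were more like the gate they are labelled with (0.791 to 0.834 within the gate and 0.738 to 0.770 across it). These correlations are across peaks and are a description, since the points share peak strength and base composition. Control values are therefore given with and without both libraries numbered 1, a choice made after seeing the data.

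To show what the called gene starts look like, 6 promoter windows are printed first, taken from RefSeq on GRCm38.p6, each 300 bases long from 250 before to 50 after an annotated start. Windows under a called peak numbered 22 for higher and 13 for lower sites, out of 11195 under a tested peak. Lima1, an actin-binding protein, Lpar1, a receptor for lysophosphatidic acid, and Mobp, a myelin protein of oligodendrocytes, had the 3 largest increases at starts of protein-coding genes. St7, Lpgat1, an acyltransferase of the endoplasmic reticulum, and Brsk1, a kinase of neuronal polarity, had the 3 largest decreases. The windows lie at chr15:99820100-99820399 (minus strand), chr4:58499354-58499653 (minus strand), chr9:120149492-120149791 (plus strand), chr6:17693744-17694043 (plus strand), chr1:191718145-191718444 (plus strand) and chr7:4690678-4690977 (plus strand), and each is read 5′ to 3′ on the strand of its gene. The Lima1 and Lpar1 starts lie inside the longer annotated gene. Any overlap of window and peak counted, and the Lpgat1 peak, at chr1:191718405-191719361, covers only the last bases of its window. Capitals mark CpG dinucleotides.
Lima1: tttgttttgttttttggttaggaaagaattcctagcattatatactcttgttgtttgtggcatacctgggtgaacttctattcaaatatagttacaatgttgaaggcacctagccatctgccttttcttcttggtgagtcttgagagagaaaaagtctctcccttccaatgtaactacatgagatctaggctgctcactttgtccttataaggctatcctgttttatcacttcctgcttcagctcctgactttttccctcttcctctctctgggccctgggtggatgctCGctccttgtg
Lpar1: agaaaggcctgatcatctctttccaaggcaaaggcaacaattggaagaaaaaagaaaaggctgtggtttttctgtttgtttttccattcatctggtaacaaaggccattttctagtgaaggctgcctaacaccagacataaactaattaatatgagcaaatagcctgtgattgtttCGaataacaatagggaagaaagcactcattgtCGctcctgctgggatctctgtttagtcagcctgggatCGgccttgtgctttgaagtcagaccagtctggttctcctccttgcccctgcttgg
Mobp: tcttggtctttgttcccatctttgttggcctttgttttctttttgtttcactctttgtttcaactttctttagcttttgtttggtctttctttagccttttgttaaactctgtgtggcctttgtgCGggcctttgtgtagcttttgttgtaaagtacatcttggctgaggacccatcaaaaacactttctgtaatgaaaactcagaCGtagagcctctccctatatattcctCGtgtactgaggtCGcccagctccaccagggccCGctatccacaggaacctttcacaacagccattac
St7: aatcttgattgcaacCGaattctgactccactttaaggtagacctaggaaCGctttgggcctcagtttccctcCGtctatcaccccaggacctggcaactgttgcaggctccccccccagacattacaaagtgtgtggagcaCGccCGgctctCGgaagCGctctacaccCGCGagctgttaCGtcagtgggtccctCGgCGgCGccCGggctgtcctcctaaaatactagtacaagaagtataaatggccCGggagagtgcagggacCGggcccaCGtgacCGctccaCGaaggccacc
Lpgat1: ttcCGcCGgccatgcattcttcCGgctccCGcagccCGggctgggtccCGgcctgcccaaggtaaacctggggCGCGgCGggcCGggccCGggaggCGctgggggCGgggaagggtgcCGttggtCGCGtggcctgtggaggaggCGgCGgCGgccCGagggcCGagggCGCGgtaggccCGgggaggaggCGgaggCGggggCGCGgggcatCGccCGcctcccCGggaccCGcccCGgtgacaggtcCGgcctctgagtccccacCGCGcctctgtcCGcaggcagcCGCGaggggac
Brsk1: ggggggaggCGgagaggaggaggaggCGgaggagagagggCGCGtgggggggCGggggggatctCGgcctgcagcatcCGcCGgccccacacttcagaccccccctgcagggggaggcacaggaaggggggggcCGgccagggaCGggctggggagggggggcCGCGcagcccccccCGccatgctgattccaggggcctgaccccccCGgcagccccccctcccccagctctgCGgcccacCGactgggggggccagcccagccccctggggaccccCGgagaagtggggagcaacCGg

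The windows differed in CpG content as the printed ones do. Those of Lima1, Lpar1 and Mobp held 1, 3 and 5 CpG, while those of St7, Lpgat1 and Brsk1 held 19, 39 and 18. Windows with 5 or fewer CpG made up 9 of the 22 at higher sites (40.9%) and 1 of the 13 at lower sites (7.69%), against 5.23% of all 11195 windows. The median was 12 CpG at higher sites, 19 at lower sites and 21 over all windows. The 5 largest increases were all at starts with 5 or fewer CpG, while the CpG-rich starts of Myh9 (non-muscle myosin), Hsp90b1 (a chaperone of the endoplasmic reticulum) and G3bp1 (a stress granule protein) had log2 fold changes of 0.66, 0.62 and 0.62, with adjusted p = 0.0394, 0.0451 and 0.0401 in edgeR. Six2 and Pax9, both developmental transcription factors, had starts with 37 and 11 CpG and log2 fold changes of 1.86 and 1.18, with adjusted p = 0.0358 and 0.0288.

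**Figure D1:**
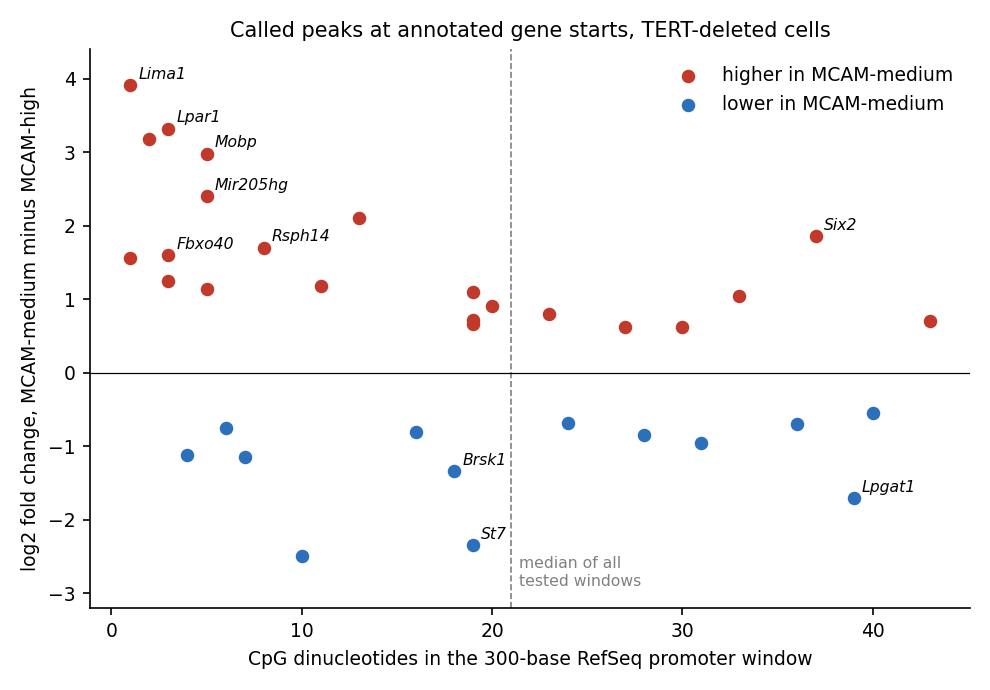
Each point is 1 of the 35 called peaks that overlap a RefSeq promoter window, with the CpG count of the window on the x axis and the log2 fold change, deleted MCAM-medium minus MCAM-high, on the y axis. The points with the largest increases, Lima1, Lpar1 and Mobp, lie at 1 to 5 CpG, left of the dashed line at the median of 21 CpG over all tested windows.

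Short motifs were counted on both strands of the same windows. The E box CAGATG, a form bound by neurogenins and related factors, was present in 10 of the 22 windows at higher sites (45.5%) and 2 of the 13 at lower sites (15.4%), against 10.7% of all windows and 19.6% of those with 5 or fewer CpG. Of the CpG-poor windows that held CAGATG, 5 of 115 (4.35%) were at a higher site, against 0.849% of the CpG-poor windows that did not. The SOX core ACAAAG was present in 36.4% of the windows at higher and 23.1% at lower sites, against 13.1% of all and 25.1% of the CpG-poor windows, and the Mobp window held 6 copies. The ETS core CCGGAA was present in 9.09% of the windows at higher sites and 53.8% at lower sites, against 26.5% of all. The GC box GGGCGG was present in 40.9% of the windows at higher sites, 53.8% at lower sites and 66.7% of all. These shares rest on 22 and 13 windows, and a match is not a bound site. The E boxes of the 5 CpG-poor windows at higher sites are shown with 15 bases on either side, on the strand that reads CAGATG, with the motif in capitals. They lie at chr15:99820265-99820300 (plus strand), chr4:58499545-58499580 (plus strand), chr16:36990656-36990691 (minus strand), chr14:60623231-60623266 (plus strand) and chr1:153737950-153737985 (minus strand).
Lima1: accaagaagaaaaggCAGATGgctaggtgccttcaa
Lpar1: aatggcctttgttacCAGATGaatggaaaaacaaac
Fbxo40: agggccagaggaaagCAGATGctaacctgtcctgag
Gm41166: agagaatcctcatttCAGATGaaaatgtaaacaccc
C230024C17Rik: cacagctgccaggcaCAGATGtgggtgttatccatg
The motif centres lay 32 to 206 bp before the annotated start, at 133 bp for Lima1 and 159 bp for Lpar1.

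Peaks within 1 kb of an annotated gene end made up 44.9% of the tested peaks, but 11.5% of the sites higher in deleted MCAM-medium cells and 29.5% of the lower sites. Of 15649 gene-end peaks, 51 were higher (0.326%) and 18 lower (0.115%). Of 10294 peaks in gene bodies, 216 were higher (2.10%) and 20 lower (0.194%), and of 8918 intergenic peaks, 177 were higher (1.98%) and 23 lower (0.258%). The same held among peaks of like strength: over 5 ranges of mean level, 1.47 to 2.73% of the peaks away from gene ends were higher, against 0.296 to 0.383% of those at gene ends. The share of all counts that lay at gene ends was 53.3%, 53.1% and 53.7% in the deleted MCAM-medium libraries, against 52.8%, 54.5% and 53.5% in the deleted MCAM-high libraries, with means of 53.4 ± 0.289% and 53.6 ± 0.847% (SD, n = 3 each). The difference of -0.236 percentage points was within the spread (exact permutation test, two-sided, p = 0.8, where the smallest p this design allows is 0.1).

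**Figure D2:**
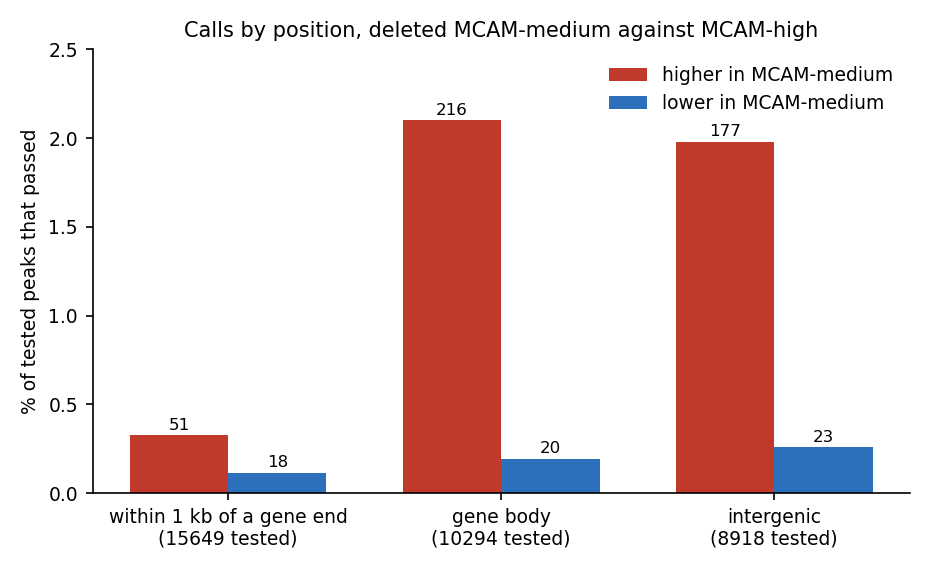
Bars give the percentage of tested peaks called higher or lower in deleted MCAM-medium against MCAM-high cells, for peaks within 1 kb of a gene end, in gene bodies and between genes, with the number of called peaks above each bar. The higher bars stand at 0.326%, 2.10% and 1.98%, and the lower bars between 0.115% and 0.258%.

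Among the gene-end peaks that were higher, 28 of 51 (54.9%) belonged to lncRNA genes, which hold 13.1% of the tested gene-end peaks. Among those that were lower, 5 of 18 (27.8%) did. The higher sites lay on 21 chromosomes or contigs and the lower on 19. Among 802 tested peaks on the X chromosome, 4 were higher and 1 was lower, and on the Y chromosome 1 was higher. No gene and no 50 kb stretch held a run of 3 or more called peaks. None of the called peaks lay within 1 kb of 1005 miRNA hairpins. How many tested peaks did was not counted, so this absence is no result about those loci.

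The sort and the deleted gene were examined through their own peaks. The gene-end peak of Mcam had 38.3, 25.7 and 28.4 CPM in deleted MCAM-medium libraries, against 25.6, 31.7 and 45.0 CPM in deleted MCAM-high libraries. The populations overlapped, with a log2 fold change of -0.14 ± 0.31 (SE) and an edgeR adjusted p of 0.907, so the surface grade used for sorting had no detectable counterpart at this peak. The peak of Kit, the receptor absent from both gates, had 38.3, 38.5 and 47.7 CPM in MCAM-medium libraries, against 50, 39.3 and 41.0 CPM in MCAM-high libraries, and also overlapped (log2 fold change -0.06 ± 0.27, adjusted p = 0.959). In deleted KIT-positive libraries the Kit peak had 92.9, 56.4 and 52.6 CPM, on a scale set over all 17 spermatogonial libraries. Tert, the catalytic subunit of telomerase, had 27.1, 16.5 and 28.4 CPM in MCAM-medium libraries, against 23.2, 25.1 and 20.5 CPM in MCAM-high libraries (log2 fold change 0.06 ± 0.35, adjusted p = 0.970). Which part of Tert was deleted is not given in the labels, so this peak does not check the deletion.

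The largest increases within protein-coding genes were all in gene bodies, where the deleted MCAM-high libraries had few or no reads. Hspa12a, which encodes a distant member of the HSP70 family, had 11.2, 21.1 and 20.3 CPM at chr19:58868078-58868465 in MCAM-medium libraries, against 2.32, 0 and 0 CPM in MCAM-high libraries. With 57 counts in MCAM-medium and 2 in MCAM-high libraries, the ratio was 25.8 (exact 95% counting interval 6.82 to 218), and the adjusted p was 0.00203. A second peak of Hspa12a was also called. Rab40c, a small GTPase of the RAB family, had 12.0, 13.8 and 23.3 CPM at chr17:25902867-25903233 in MCAM-medium libraries, against 1.16, 0.835 and 0 CPM in MCAM-high libraries, which is 53 counts in MCAM-medium against 2 in MCAM-high libraries and a ratio of 24.0 (interval 6.32 to 203; adjusted p = 0.00262). Shtn1, which acts in axon outgrowth, and the Lima1 start printed above had 40 and 38 counts in MCAM-medium libraries against 2 each in MCAM-high libraries, giving ratios of 18.1 (interval 4.70 to 155; adjusted p = 0.0194) and 17.2 (interval 4.45 to 147; adjusted p = 0.0255).

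Tnks was also among the 12 largest increases. It encodes tankyrase, a poly(ADP-ribose) polymerase that releases the shelterin protein TRF1 from telomeres and acts on axin in WNT signalling. Its called peak at chr8:34921148-34921668 had 10.4, 26.6 and 16.2 CPM in MCAM-medium libraries, against 2.32, 0 and 2.05 CPM in MCAM-high libraries, with no overlap (log2 fold change 3.61 ± 0.74, adjusted p = 0.00522). The peak lies inside the gene, and whether it acts on it is not known from these data.

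Further peaks of the 12 largest increases were as follows. The Lpar1 start printed above had 20.8, 16.5 and 24.3 CPM in MCAM-medium libraries, against 0, 3.34 and 2.05 CPM in MCAM-high libraries, again without overlap (log2 fold change 3.32 ± 0.63, adjusted p = 0.00204). Ppp2r5a, a regulatory subunit of phosphatase PP2A, averaged 16.3 ± 7.38 CPM in MCAM-medium and 1.37 ± 2.36 CPM in MCAM-high libraries (SD, n = 3 each). Agpat3, an acyltransferase of phospholipid synthesis, averaged 14.8 ± 3.24 CPM in MCAM-medium and 1.39 ± 0.811 CPM in MCAM-high libraries. Polr1b, the second largest subunit of RNA polymerase I, averaged 13.8 ± 4.19 CPM in MCAM-medium and 1.39 ± 0.811 CPM in MCAM-high libraries. Cdhr3, a cadherin-related protein, and Evc2, a ciliary protein of Hedgehog signalling, averaged 17 ± 4.67 and 14.2 ± 1.41 CPM in MCAM-medium libraries, against 1.46 ± 1.27 and 1.33 ± 1.20 CPM in MCAM-high libraries. The log2 fold changes of these 5 peaks were 3.28 to 3.55, and adjusted p-values were 0.00598 to 0.0178.

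**Figure D3:**
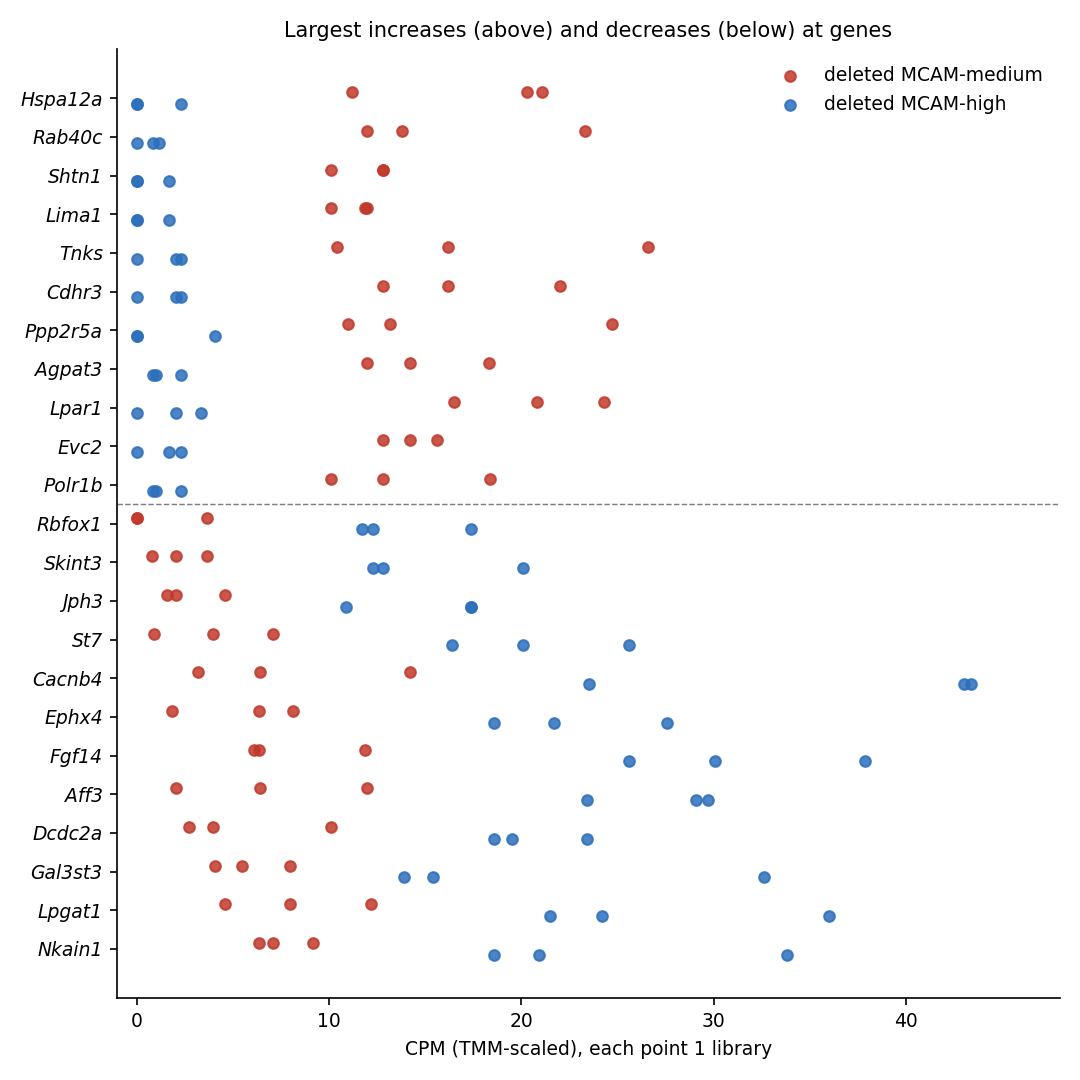
Each point is the TMM-scaled CPM of 1 library at 1 peak, for 11 of the 12 largest increases (above the dashed line) and the 12 largest decreases (below it) among called peaks in or at protein-coding genes, with deleted MCAM-medium libraries drawn above deleted MCAM-high ones in each row. In the upper 11 rows the MCAM-high points lie between 0 and 4.10 CPM and the MCAM-medium points from 10.1 CPM upwards.

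Of the 12 largest decreases, 9 lay in gene bodies and 3 at gene ends. Rbfox1, a splicing regulator, had 0, 3.67 and 0 CPM at chr16:5999973-6000396 in MCAM-medium libraries, against 17.4, 11.7 and 12.3 CPM in MCAM-high libraries (log2 fold change -3.38 ± 0.85, adjusted p = 0.026). Cacnb4, a beta subunit of voltage-gated calcium channels, had 3.19, 6.42 and 14.2 CPM at chr2:52471723-52472303 in MCAM-medium libraries, against 43.0, 43.4 and 23.5 CPM in MCAM-high libraries (-2.24 ± 0.42, adjusted p = 0.00203). Fgf14, an intracellular FGF-like protein that binds sodium channels, had 6.39, 11.9 and 6.09 CPM at chr14:124669765-124670386 in MCAM-medium libraries, against 25.6, 30.1 and 37.9 CPM in MCAM-high libraries (-1.93 ± 0.41, adjusted p = 0.00668). Jph3, a junctophilin of excitable cells, and Nkain1, a partner of the sodium pump, averaged 2.74 ± 1.62 and 7.55 ± 1.45 CPM in MCAM-medium libraries, against 15.2 ± 3.79 and 24.4 ± 8.19 CPM in MCAM-high libraries.

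The St7 start printed above had 3.99, 0.917 and 7.10 CPM in MCAM-medium libraries, against 25.6, 20.1 and 16.4 CPM in MCAM-high libraries (log2 fold change -2.35 ± 0.55, adjusted p = 0.0148). Lpgat1 had 7.98, 4.59 and 12.2 CPM in MCAM-medium libraries, against 36, 24.2 and 21.5 CPM in MCAM-high libraries (-1.71 ± 0.43, adjusted p = 0.0249). Gal3st3, a sulfotransferase of glycans, averaged 5.85 ± 1.98 CPM in MCAM-medium and 20.6 ± 10.4 CPM in MCAM-high libraries (adjusted p = 0.0481). Aff3, a transcription elongation factor of the AF4 family, Dcdc2a, a doublecortin-domain protein, Ephx4, an epoxide hydrolase, and Skint3 had log2 fold changes of -1.93, -1.89, -2.04 and -2.77 in gene-body peaks, with adjusted p-values of 0.0146 to 0.0421. In all 24 peaks of the 12 largest increases and 12 largest decreases the libraries of the 2 populations did not overlap, which the rule for naming them required. Each of the 24 lost its call under at least 1 other setting or left-out library, and among those described here the highest adjusted p over those settings ranged from 0.146 at Rab40c to 0.616 at Gal3st3, with no change of sign.

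Genes of the spermatogonial programme were described through 1 gene-end peak each. None of the 280 genes of the 21 lists that had a tested gene-end peak passed, in either direction, beside 54 of all 17163 genes (0.315%) that were higher and 19 that were lower. For stem cell genes, 22 of 26 had a tested peak, the median log2 fold change was -0.01 and the range was -0.93 to 0.69. For progenitor genes, 13 of 16 had one, with a median of 0.07 and a range of -0.59 to 0.44, and for differentiating genes 14 of 19, with a median of 0.02. The median over all genes was 0.00. Gfra1, the GDNF receptor of stem cells, had 47.9, 44.0 and 39.6 CPM in MCAM-medium libraries, against 54.6, 25.9 and 35.8 CPM in MCAM-high libraries, and these overlapped. Zbtb16, a transcription factor of all undifferentiated spermatogonia, averaged 42.3 ± 1.79 CPM in MCAM-medium and 42.0 ± 7.97 CPM in MCAM-high libraries. Sox3, the progenitor gene with the largest increase, averaged 54.3 ± 18 CPM in MCAM-medium and 40.1 ± 9.08 CPM in MCAM-high libraries. Of the 13 progenitor genes, 7 had a positive log2 fold change. Rarg, Sohlh1 and Upp1 went the other way, at -0.38, -0.43 and -0.59.

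**Figure D4:**
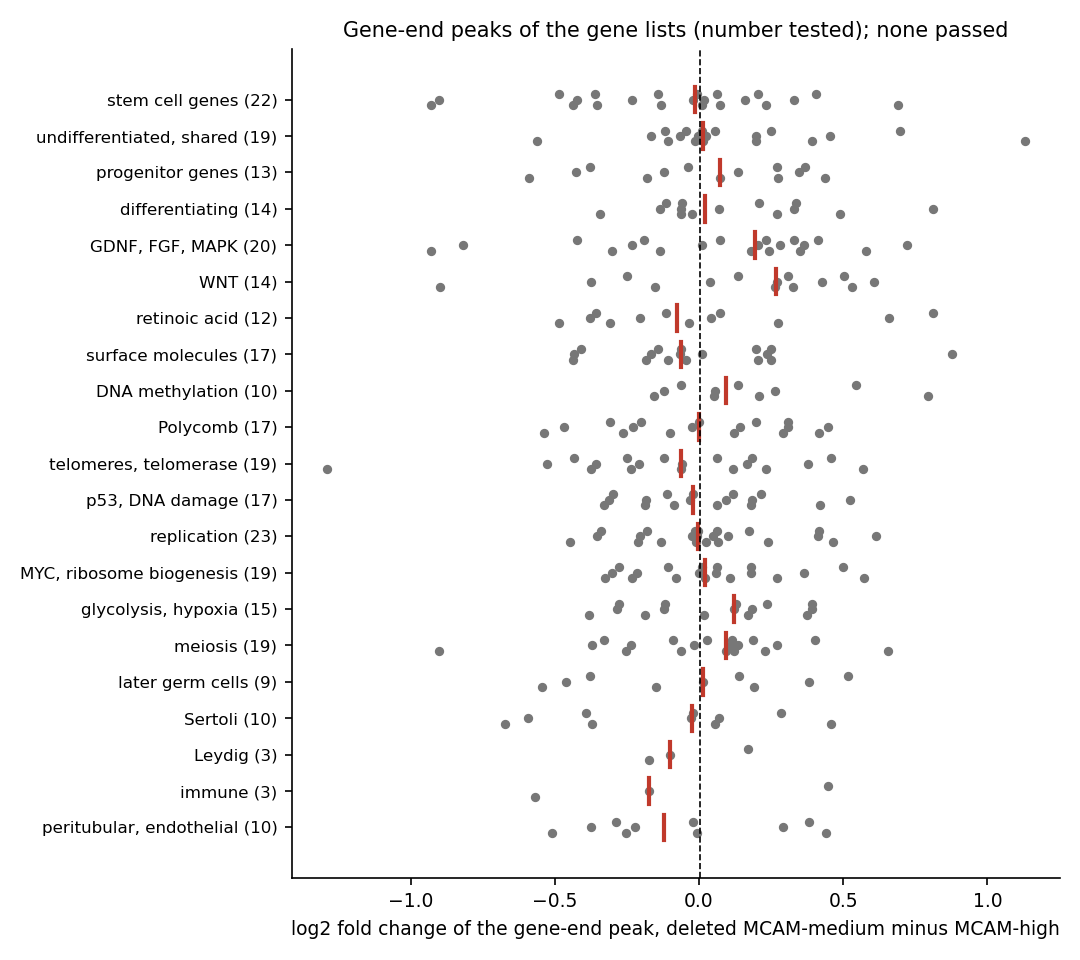
Each grey point is the log2 fold change, deleted MCAM-medium minus MCAM-high, of the gene-end peak of 1 gene in 1 of the 21 lists, with the number of genes tested in brackets, and red marks give list medians. The list medians lie between -0.17 and 0.27, near the dashed line at the median of all genes, and no point passed the test.

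Some members of the lists had unadjusted p-values under 0.05 without passing. Terc, the RNA subunit of telomerase, had 32.7, 224 and 124 CPM in MCAM-medium libraries, against 41.8, 632 and 235 CPM in MCAM-high libraries (log2 fold change -1.29 ± 0.38, adjusted p = 0.0722). Its levels differed more between libraries of 1 population than between the populations. Spry4, a feedback inhibitor of FGF and GDNF signalling, had 22.4, 20.2 and 18.3 CPM in MCAM-medium libraries, against 36, 31.7 and 49.1 CPM in MCAM-high libraries, without overlap (-0.93 ± 0.32, adjusted p = 0.155). Ddx4, the germ cell RNA helicase, had 63.9, 72.5 and 58.8 CPM in MCAM-medium libraries, against 41.8, 43.4 and 34.8 CPM in MCAM-high libraries, also without overlap (0.70 ± 0.24, adjusted p = 0.157). Lin28a, which binds let-7 precursors, had log2 fold change 1.13 ± 0.43 with adjusted p = 0.220, and Stra8, the retinoic acid target of meiotic entry, 0.81 ± 0.39 with adjusted p = 0.380. Each lay above the threshold.

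In the remaining lists, likewise, no gene passed. The median log2 fold change was 0.19 over 20 GDNF, FGF and MAPK genes, 0.27 over 14 WNT genes, -0.08 over 12 retinoic acid genes, 0.09 over 10 DNA methylation genes and 0.00 over 17 Polycomb genes. It was -0.06 over 19 telomere genes, -0.02 over 17 p53 and DNA damage genes, 0.00 over 23 replication genes, 0.02 over 19 MYC and ribosome biogenesis genes, 0.12 over 15 glycolysis genes, 0.10 over 19 meiosis genes and -0.06 over 17 surface molecules. Markers of other cells of the testis were also compared by the sum of their tested gene-end peaks. Sertoli markers (10 of 15 tested) summed to 252 to 317 CPM in MCAM-medium libraries and 268 to 331 CPM in MCAM-high libraries, and immune markers (3 of 13) to 56.8 to 77.1 CPM in MCAM-medium and 63.9 to 71.8 CPM in MCAM-high libraries. Leydig markers (3 of 10) summed to 105 to 141 CPM in MCAM-medium and 108 to 128 CPM in MCAM-high libraries. Peritubular and endothelial markers (10 of 15) summed to 348 to 361 CPM in MCAM-medium and 307 to 462 CPM in MCAM-high libraries. These ranges overlapped. Markers of later germ cells (9 of 20) summed to 318 to 341 CPM in MCAM-medium libraries, against 343 to 393 CPM in MCAM-high libraries, and none of the 9 passed. Whether these markers have a part in the other results was not tested.

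Distal peaks of the same genes, in the gene body or nearest to the gene, did include calls. Of 474 such peaks, 9 were higher (1.90%) and 1 was lower, against 384 higher of the 18738 other distal peaks (2.05%), a share near the background. These peaks are named here after their values were seen. The peak nearest Neurog3, the basic helix-loop-helix factor of progenitors, lay at chr10:62128616-62129368, with its centre 4098 bp before the annotated start. It had 71.0, 67.9 and 77.1 CPM in MCAM-medium libraries, against 20.9, 37.6 and 20.5 CPM in MCAM-high libraries, with no overlap (log2 fold change 1.42 ± 0.27, adjusted p = 0.00193). Neurog3 had no peak within 1 kb of its ends. In deleted KIT-positive libraries the same peak had 33.8, 51.4 and 46.4 CPM. In the control libraries numbered 2 it had 39.8 CPM in the one labelled MCAM-medium and 21 CPM in the one labelled MCAM-high, and in those numbered 1 it had 25.9 CPM in the one labelled MCAM-medium and 51.6 CPM in the one labelled MCAM-high.

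Tet3, a dioxygenase that oxidises 5-methylcytosine, had a called peak at chr6:83467590-83468180. It had 40.7, 37.6 and 47.7 CPM in MCAM-medium libraries, against 6.97, 13.4 and 4.10 CPM in MCAM-high libraries (log2 fold change 2.30 ± 0.39, adjusted p = 0.000644). Its gene-end peak averaged 30.2 ± 6.58 CPM in MCAM-medium and 17.4 ± 3.08 CPM in MCAM-high libraries and did not pass (0.79 ± 0.35, adjusted p = 0.331). Etv4, an ETS factor of the FGF and GDNF response, had 16.0, 25.7 and 36.5 CPM in a gene-body peak in MCAM-medium libraries, against 3.49, 3.34 and 11.3 CPM in MCAM-high libraries (2.09 ± 0.48, adjusted p = 0.0139). Btg2, an antiproliferative p53 target, averaged 22.7 ± 2.38 CPM in MCAM-medium and 3.81 ± 1.37 CPM in MCAM-high libraries at a peak 7329 bp from the gene (2.5 ± 0.51, adjusted p = 0.00517). Pdk1, a kinase that inhibits pyruvate dehydrogenase, averaged 59.5 ± 9.45 CPM in MCAM-medium and 21.6 ± 4.08 CPM in MCAM-high libraries at a peak 5996 bp away (1.47 ± 0.29, adjusted p = 0.00283). Hspa1l and Pou3f1 had the other increases beside those at Tnks and Polr1b, 1.89 and 2.09 on the log2 scale, and the decrease was at a peak 139040 bp from Cd24a (-1.41 ± 0.38, adjusted p = 0.0394).

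The called sites were then followed into libraries that had no part in choosing them. Mean CPM over the 444 higher sites was 27.0, 29.5 and 23.5 in the deleted MCAM-medium libraries and 8.14, 9.10 and 9.58 in the deleted MCAM-high libraries, as the choice fixes. In control cells it was 26.6 in the library labelled MCAM-medium 2, against 11 and 10.8 in those labelled MCAM-high 2 and 3. In the libraries numbered 1 it was 11.4 in the one labelled MCAM-medium and 27.5 in the one labelled MCAM-high. The MCAM-medium library was the higher of its pair at 438 of the 444 sites for the control libraries numbered 2 and at 7 for those numbered 1. With all 5 control libraries, 0 of 55070 peaks passed between control MCAM-medium and MCAM-high cells in edgeR (1002 at an unadjusted p under 0.05), and 311 of the 444 sites (70.0%) had a higher fitted level in MCAM-medium, against 49.1% of the tested peaks. Without both control libraries numbered 1, which leaves 1 MCAM-medium library assumed to vary like the MCAM-high ones, 283 passed (0.514%), 261 of them higher (0.474%) and 22 lower (0.0399%). In that fit 441 of the 444 sites (99.3%) were higher in control MCAM-medium cells, against 47.1% of the tested peaks, with a median log2 fold change of 1.74. Both libraries were left out for resembling the opposite gate of the deleted cells, over peaks not kept apart from these sites. The agreement of the remaining control libraries is thus largely fixed by that choice. With all 5 control libraries the median log2 fold change at the 444 sites was 0.23.

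At single named sites the control values turned on the libraries numbered 1. With all 5 control libraries, the Hspa12a, Rab40c and Lpar1 peaks had control log2 fold changes of 1.06, -0.26 and 0.54, and the Tet3 and Etv4 peaks 0.39 and 0.57, and none passed (adjusted p = 1 at each). Without the libraries numbered 1, the Hspa12a, Rab40c and Lpar1 peaks had control log2 fold changes of 3.59, 4.38 and 3.19, and the Tet3 and Etv4 peaks 2.21 and 2.53. No p-value is given for values of that fit, since 1 control MCAM-medium library was left. At Agpat3 and Evc2 the values were 0.64 and 0.27, against -0.53 and -0.21 with all 5. At the Neurog3 peak the value was 0.87, against 0.02 with all 5.

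The lower sites were followed in the same way. Mean CPM over the 61 sites was 17.3, 15.9 and 17 in deleted MCAM-medium libraries and 33.9, 37.2 and 37.4 in deleted MCAM-high libraries. It was 20.9 in the library labelled control MCAM-medium 2, against 35.8 and 32.9 in those labelled control MCAM-high 2 and 3. In the libraries numbered 1 it was 35.7 in the one labelled MCAM-medium and 22.3 in the one labelled MCAM-high. With all 5 control libraries, 40 of the 61 sites (65.6%) had a lower fitted level in control MCAM-medium cells, against 50.9% of the tested peaks, with a median log2 fold change of -0.12, and 0 were called. Without the libraries numbered 1, 51 of the 61 (83.6%) did, against 52.9% of the tested peaks, with a median of -0.76. Leaving those libraries out favours this agreement too. At the Cacnb4 site the control log2 fold change was -2.60 without the libraries numbered 1, against -0.40 with all 5 control libraries. The difference of the contrast between deleted and control cells was tested directly and no peak passed (0 of 55070, 2676 at an unadjusted p under 0.05), and none did without the libraries numbered 1 (2030 at an unadjusted p under 0.05). A test that calls no peak does not show that the contrasts were alike.

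**Figure D5:**
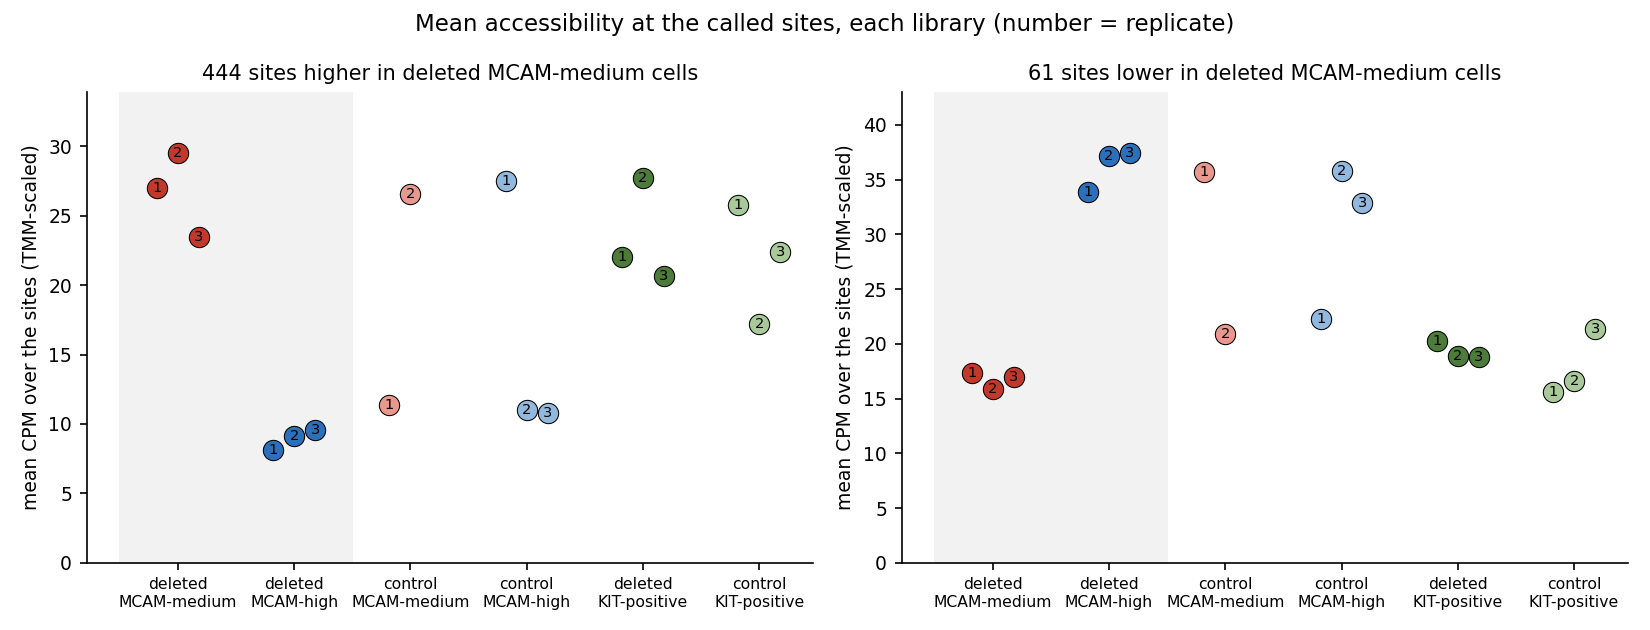
Each point is the mean TMM-scaled CPM of 1 spermatogonial library over the 444 sites higher (left) or the 61 sites lower (right) in deleted MCAM-medium cells, with its replicate number, and the shaded libraries are those that chose the sites. At the higher sites the libraries labelled control MCAM-medium 1 (11.4) and control MCAM-high 1 (27.5) stand at the level of the opposite gate.

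The called sites were last compared with KIT-positive cells. Mean CPM over the 444 higher sites was 22, 27.7 and 20.7 in deleted KIT-positive libraries and 25.8, 17.2 and 22.4 in control KIT-positive libraries, above all 3 deleted MCAM-high libraries. Mean CPM over the 61 lower sites was 20.3, 18.9 and 18.8 in deleted and 15.6, 16.6 and 21.4 in control KIT-positive libraries, below all 3 deleted MCAM-high libraries. The sites were chosen for low or high levels in those MCAM-high libraries, which by itself favours both orders. Control MCAM-high libraries 2 and 3, at 11 and 10.8 over the 444 sites, also stood above the deleted MCAM-high ones. Over all tested peaks the mean was 25.3 in deleted KIT-positive and 21.4 in deleted MCAM-high libraries. The mean of deleted KIT-positive libraries lay between those of the deleted MCAM-medium and MCAM-high libraries at 261 of the 444 sites, above both at 120 and below both at 63. Over all tested peaks it lay between them at 6970 of 34861. The 444 sites were chosen for a wide gap between these populations, which by itself favours a value in between. Between control KIT-positive and MCAM-high cells, 27 of the 444 were called higher (6.08%) and 18 lower (4.05%), against 6.97% and 4.46% of tested peaks. That background covers all 56963 peaks of the fit. Of the peaks tested in both comparisons, 6.23% were called higher and 5.97% lower, so neither share of the 444 sites stood above it. Without the control libraries numbered 1, 130 of the 444 were called higher (29.3%) and 7 lower (1.58%), against 7.82% and 5.62% of those 56963. Of the peaks tested in both comparisons, 5.72% were then called higher and 7.52% lower. Of the 59 lower sites tested between control KIT-positive and control MCAM-high cells, 22 (37.3%) were called lower in KIT-positive cells, against 5.97% of the peaks tested in both comparisons. Without the KIT-negative control libraries numbered 1, 27 (45.8%) were, against 7.52%. The Cacnb4, Dcdc2a, Fgf14 and Aff3 peaks were among the 22, with log2 fold changes of -3.01, -4.23, -1.81 and -2.05 (adjusted p = 0.0242, 0.00797, 0.0441 and 0.0440). Lpgat1 went the other way, at 1.47 (adjusted p = 0.0247).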

How the data were processed

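The deposited table holds raw counts, whole numbers for 96049 peaks in 22 libraries. The submitters' processing notes list Bowtie2, SAMtools, Picard and FastQC as tools and GRCm38, mm10 and hg19 as builds, with no roles. The peak caller, counting tool, Tn5 offset and duplicate filter are not given in the sources used here. Duplicate reads, if kept, widen the scatter of low counts. Peak starts are printed as deposited, and whether they count from 0 or 1 was not given. Peaks were assigned with RefSeq gene and promoter tables of GRCm38.p6, which hold no exons or UTRs, so peaks are placed within 1 kb of a gene end, inside a gene or between genes. The 6 deleted KIT-negative libraries were fitted alone in edgeR 4.0.16 (R 4.3.3), with TMM scaling, filterByExpr, a quasi-likelihood F test and Benjamini-Hochberg adjustment over all tested peaks (threshold 0.05). Each SE is the fold change on the log2 scale over the root of its F value. The 5 control KIT-negative libraries joined a second fit of 11 libraries, and control CPM values were scaled over 17 spermatogonial libraries. DESeq2 1.42.0, other scalings and filters, a replicate block and left-out libraries were tried as alternatives, and the code was tested on simulated data. Named genes were Mcam, Kit and Tert, the 12 highest and 12 lowest log2 fold changes among called, non-overlapping peaks at or in protein-coding genes, 1 per gene, and list genes that passed or had the 2 smallest p-values of their list; some of the last are not described, and 1 of the 12 highest is not reported here. The comparison, lists, motifs and rules were chosen with earlier results of these data known.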

Additional observations from a re-analysis of the deposited data

How the results depend on the processing

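Against 505 calls, 308 peaks passed with a replicate block, 199 in DESeq2, 766 with no filter on low counts, 217 with a mean of at least 20 counts required, and 8 with all 17 spermatogonial libraries in 1 fit. Left-out single libraries gave 119 to 586 calls, the fewest without deleted MCAM-medium library 2 and the most without MCAM-medium library 3. Leaving out both libraries numbered 1 gave 1 call, and both numbered 2 gave 0. Between MCAM-medium and MCAM-high libraries of the same number, deviations correlated at -0.01, -0.08 and -0.18. These correlations cannot decide whether libraries of the same number came from 1 preparation, so the counts without and with a replicate block are both given. Total-count, RLE and loess scaling, and leaving out the sex chromosomes and contigs, kept the count within 1.5 times (415 to 513). In the list comparison, 1 gene passed with peaks within 5 kb of a gene end, against 0. The control contrast between gates gave 283 calls without both control libraries numbered 1, against 0, and at the 444 sites 130 were higher in control KIT-positive cells, against 27. The difference between deleted and control contrasts gave 0 to 4 calls over left-out libraries, 4 without control MCAM-medium library 2. Of 461 values of the named peaks under the alternatives, 281 kept their side of the threshold and 180 lost the call. The 281 include 18 values each for Mcam, Kit and Tert, which had no call to lose. None of the 24 called peaks changed sign, while those of Mcam, Kit and Tert, which never passed, took both signs (-0.50 to 0.15, -0.20 to 0.10 and -0.14 to 0.35). Depth limits sites near the floor of 1.93 to 2.80 CPM.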

Other observations

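Further peaks with small adjusted p-values in deleted MCAM-medium against deleted MCAM-high cells are given here, chosen after their values were seen. Akain1, an anchor of protein kinase A, had 54.3, 67.9 and 56.8 CPM in a gene-body peak at chr17:69466782-69467519 in MCAM-medium libraries, against 6.97, 6.68 and 13.3 CPM in MCAM-high libraries (log2 fold change 2.72 ± 0.34, edgeR adjusted p = 5.79e-06). The lncRNA gene Gm38765 had 32.7, 33.9 and 44.6 CPM in MCAM-medium libraries, against 4.65, 0.835 and 0 CPM in MCAM-high libraries (4.38 ± 0.56, adjusted p = 5.79e-06). Fryl averaged 43.9 ± 11.2 CPM in MCAM-medium and 5.64 ± 1.45 CPM in MCAM-high libraries (2.94 ± 0.41, adjusted p = 3.69e-05). Dicer1, which cuts miRNA precursors and is needed in male germ cells, had 37.5, 45.0 and 40.6 CPM in a gene-body peak at chr12:104727440-104728210 in MCAM-medium libraries, against 9.30, 6.68 and 7.17 CPM in MCAM-high libraries (2.41 ± 0.38, adjusted p = 0.000273). In each of these peaks the 2 populations did not overlap.

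Genes with 2 called peaks numbered 22. Nxn, the redox protein nucleoredoxin that restrains WNT signalling through dishevelled, had gene-body peaks at 30.9 ± 6.80 and 87.7 ± 19.6 CPM in MCAM-medium libraries, against 3.30 ± 0.211 and 30 ± 11.6 CPM in MCAM-high libraries (SD, n = 3 each; log2 fold changes 3.18 and 1.57; edgeR adjusted p = 0.000136 and 0.000567). Kazn, a protein of cell junctions, had peaks at 40.4 ± 8.38 and 22.8 ± 6.99 CPM in MCAM-medium libraries, against 4.74 ± 4.77 and 3.02 ± 0.492 CPM in MCAM-high libraries (3.09 and 2.88; adjusted p = 0.000112 and 0.00212).

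In the 5 later germ cell libraries, of which the labels leave 4 without an agreed cell type, mean CPM over the 444 sites higher in deleted MCAM-medium spermatogonia was 5.68 to 5.82, with a median of 5.79, below the 8.14 of the lowest deleted MCAM-high library. Over the 61 lower sites it was 16.3 to 18.8, with a median of 17.9.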
